A study of Rattus norvegicus with 35 samples.

Results

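Bone is made by osteoblasts, and 10 genes of osteoblasts and of the bone matrix were followed in the olfactory epithelium of newborn, adult and old rats: Runx2, Sp7, Alpl, Sparc, Bglap, Ibsp, Dmp1, Spp1, Mepe and Omd. They were chosen by symbol, and 13 of the 41012 probes of the array report them. The files name 9 of the 10 genes directly. Bglap was found through the accession of its probe, since the files call it Bglap2. Runx2 has 4 probes and each of the other genes has 1.

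The rats were of the Brown Norway strain. Newborn pups 3 to 5 days old, of unknown sex, came from 4 litters bought with their mothers (L1, 4 pups; L2, L3 and L4, 5 pups each), and each pup gave the epithelium of 1 side of the nose. The 4 adult rats were males of 9 weeks and the 4 old rats were males of 22 months, housed by the study since 3 weeks of age, and both sides of the nose (A and B) of each were hybridized separately. Each of the 35 RNA samples was labeled with Cy3 and read on an Agilent Whole Rat Genome 44K array, which has 1 colour. No treatment was given in any group, so litter and age are the only differences the labels name. Pups of a litter share a mother, and the sexes of newborn and older rats cannot be matched.

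Osteoblasts develop from mesenchymal cells under the transcription factor Runx2 and then Sp7 (osterix). They lay down a collagen matrix, and alkaline phosphatase (Alpl) on their surface removes pyrophosphate, an inhibitor of mineral growth. Acidic phosphoproteins of the SIBLING family (Ibsp, Dmp1, Spp1 and Mepe) and osteocalcin (Bglap) then bind to or regulate the mineral. The olfactory epithelium lies on the turbinates, thin scrolls of bone in the nasal cavity. Whether bone came away with the epithelium at dissection is not given in the sources used here.

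A level is the log2 of a probe's processed signal over the median signal of its array, so that 0 is the level of a typical probe, and the 2 sides of each adult and old animal were averaged. Differences between groups were tested on 27 rats with limma over all 41012 probes, and a gene was called at a Benjamini-Hochberg adjusted p under 0.01. Every adjusted p below is from that fit unless another is named. Each litter was a group of its own in the fit, so the p-values measure the spread between rats of the same litter or age group. The spread between litters is left out of the p-values that compare all newborns with older rats. Those p-values treat littermates as independent samples and can be too small where litters differ. The level of 1 probe cannot be set against that of another probe, so only the same probe is compared between groups.

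The median signal of an array lay between 46.0 and 96.5 in newborns, between 88.7 and 179 in adults and between 40.2 and 59.8 in old rats. On an array, 24484 to 28361 probes passed a stricter mark than well above background, being also significant, uniform and not saturated. Adult arrays were scanned on days of their own, with another release of the scanner software, so age and scan day cannot be told apart in any comparison with adults. L1 and the old rats shared a scan day, and the remaining litters were read on the days after it. Of the markers of mature olfactory sensory neurons, 9 of 10 measured genes were well above background on at least 18 of the 35 arrays, and their mean level was 3.17 to 4.12 in pups, 5.32 to 5.73 in adults and 5.79 to 6.14 in old rats. In bulk tissue, fewer cells of a type and less RNA per cell cannot be told apart.

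Of the matrix genes Bglap, Mepe and Ibsp, the last 2 were called higher in adult than in old rats below, and Bglap was not called between them. The promoters of these genes are shown because Runx2, a transcription factor among the 10 genes, binds to the letters ACCACA. That binding was worked out on the osteocalcin promoter. The sequences are the 250 bases before the start of the RefSeq transcript in the GRCr8 build, all on the minus strand and written 5′ to 3′, and capitals mark ACCACA or its complement TGTGGT.
Bglap, chr2:176137319-176137568: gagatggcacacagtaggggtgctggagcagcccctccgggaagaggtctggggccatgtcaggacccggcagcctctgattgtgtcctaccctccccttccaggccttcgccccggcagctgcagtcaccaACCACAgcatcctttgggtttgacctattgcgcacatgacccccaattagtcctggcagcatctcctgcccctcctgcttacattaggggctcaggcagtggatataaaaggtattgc
Mepe, chr14:5736859-5737108: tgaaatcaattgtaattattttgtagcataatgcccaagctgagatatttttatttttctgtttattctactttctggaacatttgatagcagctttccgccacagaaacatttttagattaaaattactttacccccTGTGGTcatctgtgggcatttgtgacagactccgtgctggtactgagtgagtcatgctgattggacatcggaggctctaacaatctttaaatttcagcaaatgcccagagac
Ibsp, chr14:5757243-5757492: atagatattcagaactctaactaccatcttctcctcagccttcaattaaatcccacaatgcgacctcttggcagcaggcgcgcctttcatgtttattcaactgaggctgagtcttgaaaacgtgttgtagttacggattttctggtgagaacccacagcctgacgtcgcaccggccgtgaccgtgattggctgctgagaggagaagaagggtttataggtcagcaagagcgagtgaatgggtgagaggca
The match in Bglap began 118 bases before the start and the match in Mepe 112 bases before it. Among 10 windows of 9 of the genes, 4 windows of 4 genes held the letters (Bglap, Mepe, Sparc and the first window of Runx2). Of all 33469 promoter windows of the same length, 14.5% held them on one strand or the other. Spp1, Dmp1, Alpl, Omd, Ibsp and the second window of Runx2 had no such letters in this window, and Sp7 had no window. A match describes letters and was not tested as a binding site.

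The 4 SIBLING genes lie side by side on chromosome 14. In the rn3 coordinates of the files, the Spp1 probe lies at chr14:6422382-6422441, Mepe at chr14:6529384-6529443, Ibsp at chr14:6549186-6549245 and Dmp1 at chr14:6637483-6637542, within 215161 bases. The other probes were at chr5:156511780-156511839 (Alpl), chr2:180432419-180432478 (Bglap), chr17:21015274-21015333 (Omd), chr7:141186782-141186841 (Sp7), chr10:40825096-40825155 (Sparc) and chromosome 9 (Runx2).

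**Figure D1:**
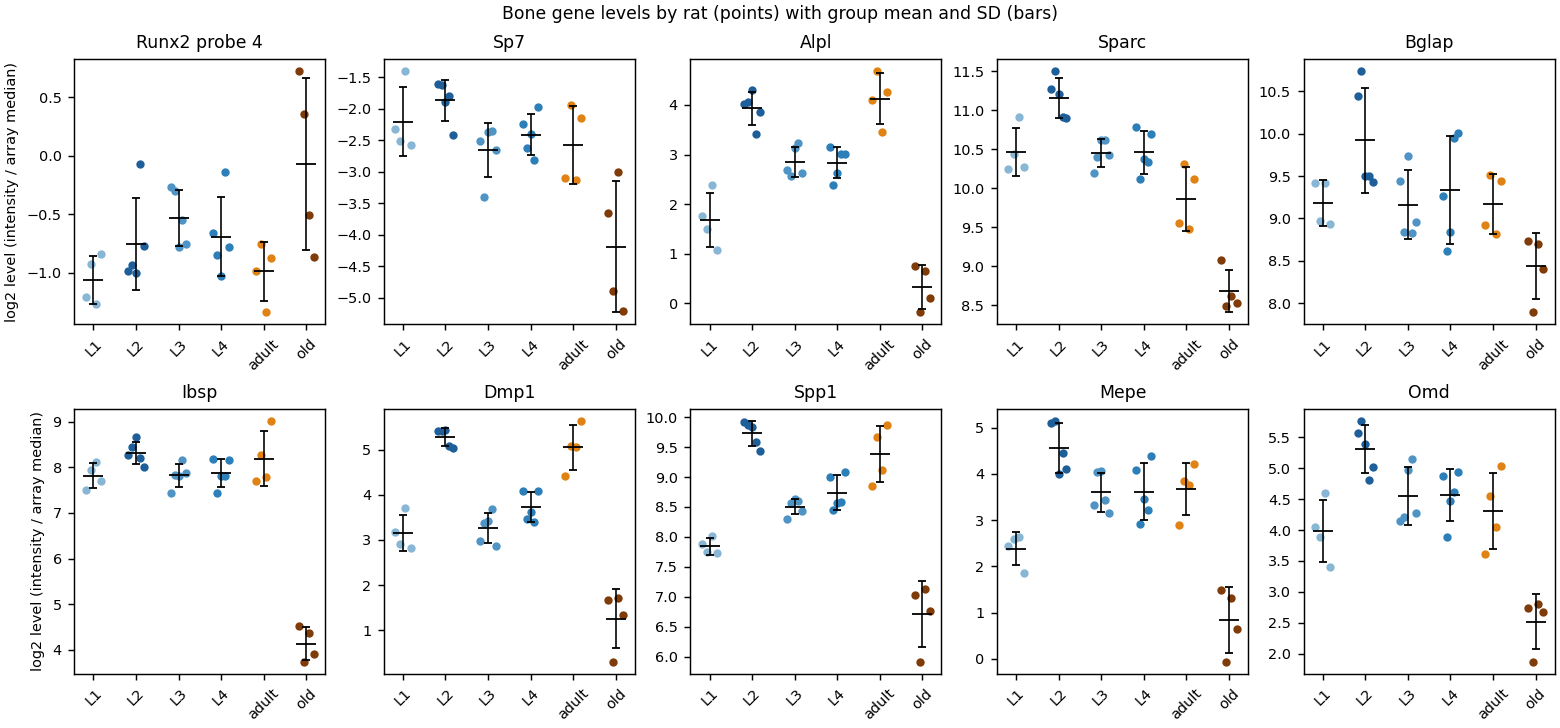
Level of each gene (log2 of signal over array median, y axis, a separate scale in each panel) in L1, L2, L3, L4, adult and old rats, with 1 point per rat and bars for the group mean and SD. The mean of old rats is lowest in every panel but that of Runx2 probe 4, and L2 pups sit above the other litters for Dmp1, Spp1 and Alpl.

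The comparison of adult with old rats asks which bone genes differ in the epithelium between 9 weeks and 22 months of age. Whether growth had ended at 9 weeks is not given in the sources used here. Of the 10 genes, 8 were higher in adult than in old rats, 1 was lower (the brightest Runx2 probe) and Bglap was not called. Over all probes, 11.4% were called higher in adults and 20.3% higher in old rats. The median difference of the 10 genes was 2.23 log2 units in favour of adults, where the median over all probes was -0.14. For 5 genes the called difference was at least 5-fold, against 1.22% of all probes in that direction. For 8 genes every adult rat was above every old rat, against 15.9% of all probes. These 8 include Bglap, and Runx2 and Sp7 were those that overlapped. Sp7, counted among the called, was near background on most arrays.

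Newborn pups also stood above old rats. Of the 10 genes, 9 were higher in newborns and 1 was lower, again Runx2. Over all probes, 20.0% were called higher in newborns and 22.8% higher in old rats, with a median of -0.04, whereas the median of the 10 genes was 2.04. The difference was at least 5-fold for 4 genes, against 2.90% of all probes, and 7 genes had all 19 pups above all 4 old rats, against 10.3% of all probes. Bglap, Runx2 and Sp7 overlapped. This comparison and the preceding one use the same old rats, so they are not independent of each other.

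Newborns and adults differed less. Sparc was higher in newborns, Alpl, Dmp1 and Spp1 were higher in adults, and 6 genes were not called. Over all probes, 26.7% were called higher in newborns and 19.6% higher in adults. The median of the 10 genes was 0.05, beside 0.10 over all probes. The ranges of newborns and adults overlapped for each of the 10 genes, whereas 15.8% of all probes had every pup above every adult and 10.6% the reverse.

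**Figure D2:**
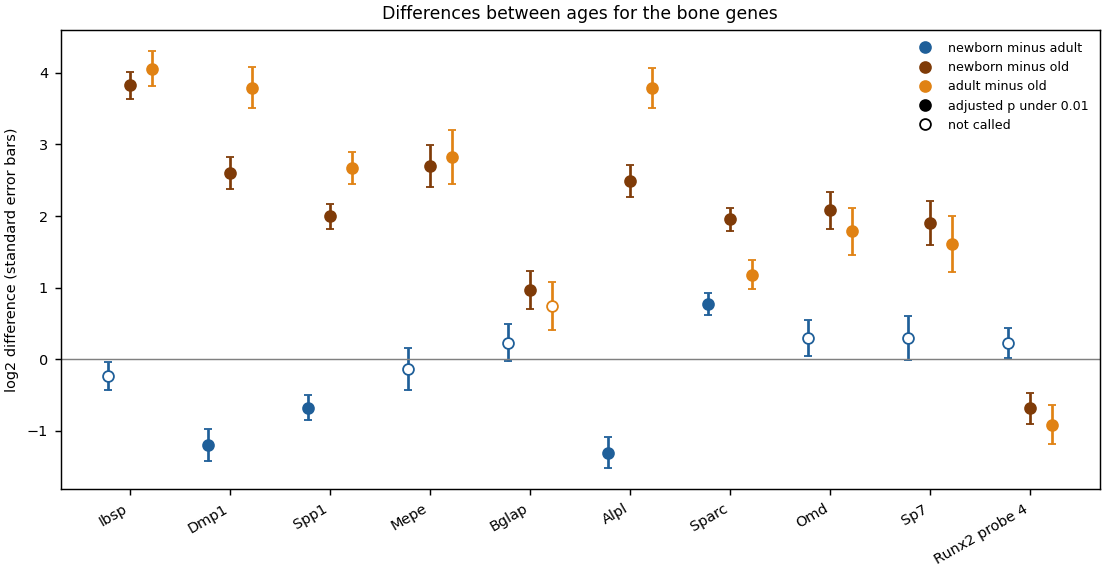
Difference between ages (log2, y axis) for each of the 10 genes, with bars for the standard error and filled points for an adjusted p under 0.01. The brown and orange points, the differences from old rats, lie above 0 for each gene but Runx2 probe 4, and the blue points, newborn minus adult, lie on both sides of 0. The points of Sp7 against old rats are fitted values against a signal at background, not sizes.

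Ibsp encodes bone sialoprotein, which nucleates mineral at the front of new bone. Its levels were 7.69, 8.27, 7.78 and 9.02 in adult rats 13, 14, 15 and 16, and 4.52, 3.73, 4.36 and 3.92 in old rats 17, 18, 19 and 20. In the 19 pups the lowest level was 7.44, the median 7.95 and the highest 8.66. Pups and adults overlapped, and the old rats lay far below both. The adult level was 16.7-fold that of old rats (4.06 log2 units, SE 0.24, adjusted p = 3.21e-11), and the newborn level was 14.2-fold (3.83, SE 0.19, adjusted p = 1.22e-13). Newborn minus adult was -0.23 (SE 0.19, adjusted p = 0.323). That last comparison depended on scaling: with quantile normalization in place of the array median it was -0.84 (adjusted p = 0.00114).

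Dmp1 encodes dentin matrix protein 1, a product of late osteoblasts and osteocytes. Adult rats 13 to 16 had levels of 4.42, 5.07, 5.07 and 5.64, and old rats 17 to 20 had 1.66, 0.30, 1.72 and 1.33. Pups ranged from 2.83 to 5.44 with a median of 3.63, wider than either older group. The adult level was 13.9-fold the old one (3.79, SE 0.29, adjusted p = 6.44e-10) and the newborn level 6.07-fold (2.60, SE 0.22, adjusted p = 1.12e-09). Newborns were 2.29-fold lower than adults (-1.19, SE 0.22, adjusted p = 7.12e-05).

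Spp1 encodes osteopontin, which is made by osteoblasts and osteoclasts but also by macrophages and epithelia, and which slows mineral growth. Its probe is printed on 10 spots of each array, which were averaged. Adult rats had 8.86, 9.67, 9.12 and 9.87 and old rats 7.03, 5.91, 7.12 and 6.76, with no overlap. Pups ranged from 7.73 to 9.92 with a median of 8.59. Adults were 6.39-fold above old rats (2.68, SE 0.23, adjusted p = 3.54e-09), and newborns were 4.0-fold above them (2.0, SE 0.18, adjusted p = 1.81e-09). Newborn minus adult was -0.68 (SE 0.18, adjusted p = 0.00213), a call that was lost without adult rat 14 (adjusted p = 0.0176) or adult rat 16 (adjusted p = 0.026).

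Mepe encodes matrix extracellular phosphoglycoprotein, an osteocyte product. Adult rats had 2.89, 3.85, 3.76 and 4.20, old rats had 1.49, -0.06, 1.32 and 0.64, and pups ranged from 1.86 to 5.15 with a median of 3.46. The lowest pup was above the highest old rat. Adults were 7.10-fold above old rats (2.83, SE 0.38, adjusted p = 2.1e-06) and newborns 6.47-fold (2.69, SE 0.29, adjusted p = 5.04e-08). Newborn minus adult was -0.13 (SE 0.29, adjusted p = 0.732).

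On chromosome 14 the array holds 2 further probes between Spp1 and Dmp1, neither of which has a gene name in the files. The probe of the transcript AW141646 lies at chr14:6549044-6549103, next to that of Ibsp, and was higher in adults than in old rats by 1.87 log2 units (adjusted p = 3.8e-08), less than the 4.06 of Ibsp. The probe of AI600195 at chr14:6614161-6614220 was well above background on 0 arrays.

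Alpl encodes the tissue-nonspecific alkaline phosphatase, which bone shares with liver and kidney. Adult rats had levels of 4.10, 4.68, 3.45 and 4.27, and old rats had 0.76, -0.18, 0.65 and 0.11. Pups ranged from 1.08 to 4.29 with a median of 3.00, and all of them were above the old rats. Adults were 13.9-fold above old rats (3.79, SE 0.28, adjusted p = 5.21e-10), newborns were 5.62-fold above them (2.49, SE 0.22, adjusted p = 1.83e-09), and newborns were 2.47-fold below adults (-1.30, SE 0.22, adjusted p = 2.02e-05).

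Sparc, osteonectin, binds collagen and calcium and is made by many connective tissue cells besides osteoblasts. Pups ranged from 10.12 to 11.50 with a median of 10.62, adult rats had 9.56, 10.31, 9.47 and 10.11, and old rats had 9.08, 8.49, 8.62 and 8.53. The order newborn, adult, old was that of the group means, with an overlap only between pups and adults. Newborns were 3.87-fold above old rats (1.95, SE 0.15, adjusted p = 3.45e-10) and adults 2.27-fold (1.18, SE 0.20, adjusted p = 4.31e-05). Newborn minus adult was 0.77 (SE 0.15, adjusted p = 0.000171) with the array median but -0.0041 with quantile normalization (adjusted p = 0.994), so its direction is not settled. Quantile normalization moved the median newborn minus adult difference of 23668 expressed probes from 0.16 to -0.01.

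Omd, osteomodulin, is a keratan sulfate proteoglycan of mineralised matrix. Pups ranged from 3.40 to 5.77 with a median of 4.62, adult rats had 3.61, 4.54, 4.04 and 5.04, and old rats had 2.74, 1.87, 2.80 and 2.67. Every old rat was below every other rat. Newborns were 4.23-fold above old rats (2.08, SE 0.25, adjusted p = 3.14e-07) and adults 3.45-fold (1.79, SE 0.33, adjusted p = 0.000109), and newborn minus adult was 0.29 (SE 0.25, adjusted p = 0.355).

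Bglap, osteocalcin, is the vitamin K-dependent protein that osteoblasts secrete into blood and matrix. Adult rats had 8.92, 9.52, 8.82 and 9.44, old rats had 8.73, 7.89, 8.70 and 8.41, and pups ranged from 8.61 to 10.74 with a median of 9.42. Old rats 17 and 19 came within the range of the pups. Newborns were 1.96-fold above old rats (0.97, SE 0.26, adjusted p = 0.00304), a call lost without old rat 18 (adjusted p = 0.0283), without old rat 20 (adjusted p = 0.0109) or without litter L2 (adjusted p = 0.0108). Adult minus old was 0.74 (SE 0.33, adjusted p = 0.0795), although no old rat reached an adult, and was called with quantile normalization (1.38, adjusted p = 0.00138). Newborn minus adult was 0.23 (SE 0.26, adjusted p = 0.491).

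Bglap and Ibsp are both matrix proteins of bone, and their differences between adult and old rats were far apart in size. The log2 level of Ibsp minus that of Bglap in the same rat lay between -1.25 and -0.42 in the 4 adults (mean -0.98, SD 0.39) and between -4.49 and -4.16 in the 4 old rats (mean -4.30, SD 0.15). The shift of 3.32 log2 units is a description, because the pair was chosen after the values were seen. The adult and old rats are different animals, so the shift is a difference between groups and not a change within a rat. Only this difference between groups is read, since levels of different probes cannot be set against each other. Any single divisor of an array cancels in the shift, whereas quantile normalization need not leave it the same.

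Sp7 encodes osterix, the factor that follows Runx2. Its probe was well above background on 4 of 19 newborn arrays, 3 of 8 adult arrays and 0 of 8 old arrays. Pups ranged from -3.40 to -1.40 with a median of -2.38, adult rats had -3.10, -1.95, -3.13 and -2.15, and old rats had -3.65, -4.89, -3.01 and -5.22. Old rat 19 lay within the ranges of adults and pups. The fit called Sp7 higher in newborn than in old rats (adjusted p = 1.44e-05) and in adult than in old rats (adjusted p = 0.00197), but against the dimmest signal that is well above background on the old arrays no fold above 1 remained, so no size is given. The adult minus old call was lost without adult rat 14, old rat 18 or old rat 20 (adjusted p = 0.0107, 0.0115 and 0.0122).

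Runx2 was the gene whose answer depended on the probe. The 4 probes, each of 60 bases, are shown because they disagree. They are numbered by position along chromosome 9 of rn3, and are written as on the array with no letters marked.
Runx2 probe 1, chr9:11789815-11789874: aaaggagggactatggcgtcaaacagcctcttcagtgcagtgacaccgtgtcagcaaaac
Runx2 probe 2, chr9:11867912-11877881: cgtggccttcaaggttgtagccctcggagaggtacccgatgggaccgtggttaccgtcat
Runx2 probe 3, chr9:11884865-11943270: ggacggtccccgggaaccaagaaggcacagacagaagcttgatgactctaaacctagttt
Runx2 probe 4, chr9:12016468-12018248: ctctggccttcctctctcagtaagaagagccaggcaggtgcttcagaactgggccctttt
Probe 1 lies within 60 genomic bases. Probes 2, 3 and 4 span 9970, 58406 and 1781 genomic bases, so each crosses at least 1 intron. Each probe had 2 of 3 reading frames free of stop codons.

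Probe 4 was the brightest and stood for the gene in the counts above, being well above background on all 35 arrays. Its levels were -0.99, -0.75, -1.34 and -0.88 in adult rats and 0.72, 0.36, -0.51 and -0.86 in old rats, and from -1.27 to -0.07 in pups with a median of -0.78. Old rats 17 and 18 were above every adult and every pup, and old rat 20 was among the adults. Adults were 0.92 log2 units below old rats (SE 0.27, adjusted p = 0.00897) and newborns 0.69 below (SE 0.21, adjusted p = 0.00892). Both calls lay just inside the threshold. Of the 27 fits that left out 1 rat each, 21 lost the adult minus old call and 19 the newborn minus old call, among them those without old rat 17 (adjusted p = 0.053 and 0.109) or old rat 18 (adjusted p = 0.0399 and 0.0641).

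The other Runx2 probes ran the opposite way. Probe 1 was well above background on 19 of 19 newborn, 4 of 8 adult and 0 of 8 old arrays, probe 2 on 19, 7 and 1, and probe 3 on 13, 3 and 0. For probe 1, pups ranged from -1.62 to -0.21, adults had -2.68, -1.98, -3.12 and -1.92, and old rats had -3.56, -5.05, -3.13 and -2.93. All pups were above all older rats. Newborn minus old was called for probe 1 (at least 2.44-fold, adjusted p = 1.13e-08), probe 2 (1.72 log2 units, SE 0.23, adjusted p = 9.01e-07) and probe 3 (at least 1.49-fold, adjusted p = 0.00036). Newborn minus adult was called for probe 1 (1.43, adjusted p = 6.29e-05) and probe 3 (0.75, adjusted p = 0.00576) but not for probe 2 (0.53, adjusted p = 0.0509). Adult minus old was called for probe 1 (adjusted p = 0.0047, with no fold, as old signals were at background) and probe 2 (1.19, adjusted p = 0.00191) but not for probe 3 (adjusted p = 0.458).

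**Figure D3:**
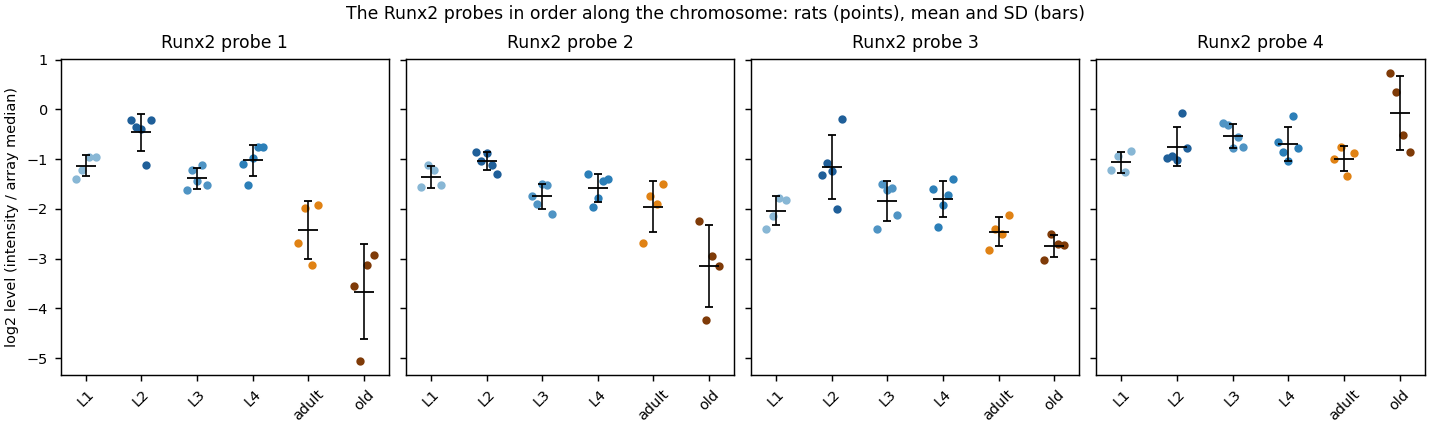
Level (log2 of signal over array median, y axis) of the 4 Runx2 probes in L1, L2, L3, L4, adult and old rats, on 1 scale, with 1 point per rat and bars for the mean and SD. Probes 1 and 2 are lowest in old rats and probe 4 is highest in 2 of them.

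The pups make it possible to ask whether the genes vary between litters. All pups were 3 to 5 days old, and the age of each litter is not given in the sources used here. Whether litters differed in age was therefore not tested. An F test over the 4 litters called 5 of the 10 genes, Dmp1 (adjusted p = 3.2e-06), Spp1 (3.86e-06), Alpl (1.08e-05), Mepe (0.000552) and Sparc (0.00617), where 21.5% of all probes were called. Omd (adjusted p = 0.0125), Bglap (0.137), Ibsp (0.179), Sp7 (0.288) and Runx2 probe 4 (0.382) were not called. L2 had the highest mean of each gene except Runx2 read by probe 4, and L1 had the lowest mean of Dmp1, Spp1, Alpl, Mepe, Omd and Runx2 probe 4 and, by 7.81 beside 7.82 in L3, of Ibsp.

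Dmp1 set L2 apart most clearly. Its levels were 5.42, 5.41, 5.44, 5.08 and 5.04 in the 5 pups of L2, 3.18, 2.92, 3.71 and 2.83 in L1, 2.98, 3.38, 3.42, 3.67 and 2.87 in L3, and 4.08, 3.45, 3.63, 3.40 and 4.07 in L4. Every L2 pup lay above every other pup and above the lowest adult, and the pups of L1 and L3 overlapped. The mean of L2 was 5.28 (SD 0.20, n = 5), beside 5.05 (SD 0.50, n = 4) in adults.

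Spp1 gave the same picture with a further step. Its means were 7.84 (SD 0.14, n = 4) in L1, 8.51 (SD 0.13, n = 5) in L3, 8.74 (SD 0.29, n = 5) in L4 and 9.73 (SD 0.21, n = 5) in L2. Pups of L3 and L4 overlapped, and neither L1 nor L2 overlapped any other litter. Alpl had means of 1.69 (SD 0.55) in L1, 2.85 (SD 0.31) in L3, 2.84 (SD 0.32) in L4 and 3.93 (SD 0.32) in L2, and Mepe had 2.38 (SD 0.36), 3.60 (SD 0.42), 3.62 (SD 0.61) and 4.56 (SD 0.54) in the same order. Ibsp, in contrast, had litter means between 7.81 and 8.32 with SDs of 0.24 to 0.30. The mean level of the osteoclast genes did not overlap between L1 and L2, and was 2.54 to 2.92 in L1, 3.34 to 3.61 in L2, 2.64 to 3.13 in L3 and 2.97 to 3.51 in L4, and L2 and L3 did not overlap either. The mean level of the red cell genes did not overlap between L2 (4.46 to 5.54) and L3 (3.54 to 4.19), with 3.92 to 5.06 in L1 and 3.32 to 4.56 in L4. That of the neutrophil granule genes did not overlap between L1 (1.24 to 1.89) and L3 (0.63 to 1.01), with 0.43 to 1.99 in L2 and 0.54 to 2.53 in L4. The mean level of the cartilage list overlapped between all litters. The part of these other cells in the litter differences was not tested.

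Litters were partly confounded with scan day, so the F test was repeated on the pups scanned on day 4, which held 4 pups of L2, 3 of L3 and 4 of L4. It called 3 of the 10 genes, where 3.49% of all probes were called. Dmp1 was higher in L2 than in L3 by 2.02 and than in L4 by 1.52 (adjusted p = 0.00197), Spp1 by 1.23 and 0.99 (adjusted p = 0.00559), and Alpl by 1.25 and 1.26 (adjusted p = 0.00922). On the 1 slide that held an L2 pup beside a pup of L3, the Dmp1 level was 5.08 in the L2 pup and 3.42 in the L3 pup, the Spp1 level was 9.58 and 8.63, and the Alpl level was 3.42 and 3.12. Omd (4.81 in the L2 pup and 4.98 in the L3 pup) and Bglap (9.5 and 9.74) were lower in the L2 pup. With slide as a random block, 3 of the 5 calls over all litters stood, and those of Mepe (adjusted p = 0.0141) and Sparc (0.0705) were lost.

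Taken litter by litter, in comparisons added after the values were seen, the direction of the called differences from adults was not the same in each litter. The counts of called genes were near or below the share of all probes. That share, given beside each litter, is of probes called in either direction, so the counts are not read as a result about the bone genes. L1 had 4 genes called lower than adults and none higher, where 41.8% of all probes were called: Alpl by -2.44, Dmp1 by -1.89, Spp1 by -1.54 and Mepe by -1.29. L3 had 3 called lower (40.9% of all probes) and L4 had 2 (40.3% of all probes). L2 had none called lower and 2 called higher (40.4% of all probes), Sparc by 1.29 (adjusted p = 3.85e-06) and Omd by 1.0 (adjusted p = 0.00933). In L2, Alpl minus adult was -0.20 (adjusted p = 0.593), Dmp1 0.23 (adjusted p = 0.536) and Spp1 0.35 (adjusted p = 0.191). The 4 newborn-adult differences of the pooled pups were also lost when each litter counted as 1 sample, with adjusted p of 0.0286 for Alpl, 0.0649 for Dmp1, 0.199 for Spp1 and 0.0186 for Sparc.

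Against old rats, each litter stood above. L2 had 9 genes called higher (40.5% of all probes were called in either direction), L3 had 8 (37.2%) and L4 had 8 (37.4%). L1, which shared a scan day with the old rats, had 8 called higher and 1 lower (Runx2 probe 4), where 13.2% of all probes were called higher and 18.5% lower, and the median of the 10 genes was 1.50 beside -0.09 for all probes. Ibsp was higher in L1 than in old rats by 3.68 (adjusted p = 4.57e-11), Dmp1 by 1.90 (9.1e-06) and Sparc by 1.78 (1.52e-07). In a fit of only these 8 rats, 4 of the 10 genes were called, Ibsp, Sparc, Dmp1 and Omd, all higher in L1, where 11.8% of all probes were called higher in L1 and 16.7% higher in old rats.

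The 8 adult and old rats also show how much the genes vary within an animal. Both sides of a rat were on the same slide. Ibsp was lower on side A than on side B in each of the 8 rats: adult rats 13, 14, 15 and 16 had 7.25, 8.19, 7.39 and 8.43 on side A and 8.14, 8.34, 8.17 and 9.61 on side B, and old rats 17, 18, 19 and 20 had 4.30, 3.35, 4.30 and 3.63 on side A and 4.73, 4.12, 4.42 and 4.21 on side B. Alpl was also lower on side A in 8 of 8 rats, by a median of 0.24 log2 units where that of Ibsp was 0.68. Of all probes, 0.634% were lower on side A in all 8 rats and 0.349% higher.

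Bglap and Omd were lower on side A in 7 of the 8 rats, Dmp1, Spp1, Sparc, Mepe and Sp7 in 6, and Runx2 probe 4 in 4. The median over the 10 genes of the SD between the sides of a rat was 0.612 in adults and 0.249 in old rats. For Dmp1 in adults the sides of a rat (SD 0.721) spread more than the rats (SD 0.50), and in old rats they spread less (SD 0.197 beside 0.659). No test was made of these side differences.

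**Figure D4:**
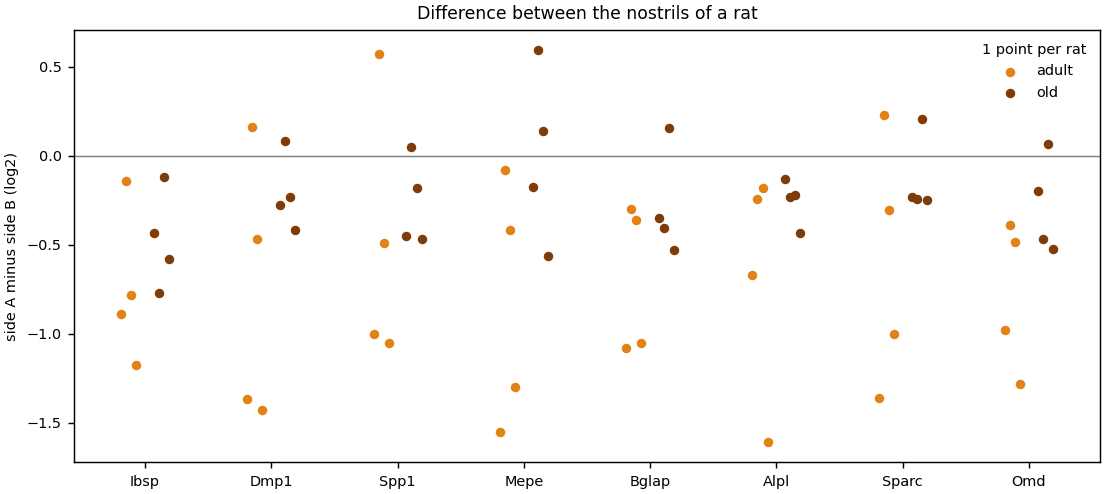
Side A minus side B (log2, y axis) in the 4 adult and 4 old rats for the 8 genes other than Runx2 and Sp7, with 1 point per rat. All points of Ibsp and Alpl lie below 0, and the point farthest from 0 is that of an adult rat for each gene.

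Inside the groups the genes moved together from rat to rat. After the mean of each litter or age group was taken off, the Pearson correlation over the 27 rats was between 0.36 and 0.91 for the 28 pairs of the 8 genes other than Runx2 and Sp7, with a median of 0.69, and 25 pairs were over 0.5. The highest pair was Dmp1 with Spp1 and the lowest Ibsp with Bglap. Runx2 differed between its probes: against the same 8 genes the correlation was between 0.44 and 0.73 for probe 1, between 0.52 and 0.83 for probe 2, between 0.11 and 0.38 for probe 3 and between -0.25 and 0.07 for probe 4. These are descriptions, since each pair shares its array, its scaling and its piece of tissue.

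The 10 genes whose levels were most like that of Ibsp by this measure, of 14106 symbols, were Col5a2 (r = 0.92), Col5a1 (0.92), Itga10 (0.91), RGD1310170 (0.91), Fn1 (0.91), Pcolce (0.90), Fkbp7 (0.90), Col11a1 (0.89), Fkbp10 (0.89) and Sgms2 (0.88). Col5a1, Col5a2 and Col11a1 encode fibrillar collagen chains, Pcolce enhances the trimming of procollagen, and Fkbp10 assists collagen folding. All 10 were called higher in adult than in old rats, by 0.92 (Sgms2) to 3.36 (Col5a1) log2 units. Of all probes, not limited to those well above background, 11.4% were called so. Group means were taken off before this choice, but the genes were chosen for following Ibsp on the same arrays and pieces of tissue. The count is therefore a description. In the same ranking the bone genes stood at 54 (Spp1), 68 (Sparc), 83 (Omd), 99 (Dmp1), 153 (Runx2 probe 2), 278 (Alpl), 308 (Mepe) and 1618 (Bglap). Closeness to Ibsp was thus not particular to the bone genes.

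Further genes of bone formation followed the 10 genes in part. Of 33 such genes on the list, 29 were measured, and 12 were called higher in adults than in old rats and 2 lower, with a median of 0.77 beside -0.14 for all probes. Between newborn and old rats 19 were higher and 3 lower (median 1.47), and between newborns and adults 14 were higher in newborns and 4 lower (median 0.67). These medians are over fitted values, and they were 0.68, 1.40 and 0.78 with genes at background in 1 group at their bound and genes at background in both left out. The medians of the 10 bone genes given above did not change in this way. Over all probes, 11.4% were called higher in adults than in old rats and 20.3% lower. The shares were 20.0% higher and 22.8% lower in newborn than in old rats, and 26.7% higher and 19.6% lower in newborns than in adults. Col1a1, the main collagen chain of bone, was 10.0-fold higher in adult than in old rats (3.33, adjusted p = 1.45e-09). Smpd3, a sphingomyelinase needed for mineralisation, was 11.6-fold higher (3.54, adjusted p = 2.71e-09). Phex, a peptidase of osteocytes, was at least 2.72-fold higher in adults (adjusted p = 8.04e-11), being well above background on 7 of 8 adult and 0 of 8 old arrays. Dspp, best known from dentin, was at least 2.30-fold higher in newborns than in adults (adjusted p = 0.00147). Its adult minus old difference was not called (adjusted p = 0.155), with 0 of 8 adult and 3 of 8 old arrays well above background.

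Most osteoclast markers were higher in adult and newborn rats than in old rats. Of 12 measured osteoclast genes, 9 were called higher in adult than in old rats and none lower (median 1.30, or 1.04 with genes at background at their bound). Between newborn and old rats 9 were higher and 2 lower (median 1.48, or 0.97 at the bounds). The 2 lower in newborns, chosen for mention after their values were seen, were Tnfrsf11a, the receptor RANK (-0.68, adjusted p = 1.17e-05), and Clcn7, a chloride transporter of osteoclasts (-0.46, adjusted p = 4.83e-05). Over all probes, 11.4% were called higher in adult and 20.0% higher in newborn than in old rats. Between newborns and adults, 5 osteoclast genes were called higher in newborns and 2 lower (median 0.19). The shares of all probes there were 26.7% and 19.6%. The mean level of the list was 2.54 to 3.61 in pups, 2.38 to 3.12 in adults and 1.17 to 1.47 in old rats. Ctsk, the collagenase of osteoclasts, was 33.3-fold higher in adults than in old rats (5.06, adjusted p = 4.5e-10). Acp5, the acid phosphatase of osteoclasts, was higher in newborns than in old rats by 3.15 (adjusted p = 4.3e-13), and Mmp9 by 4.27 (adjusted p = 1.53e-13). Calcr, the calcitonin receptor, was well above background on 0 of 8 old arrays and at least 2.66-fold higher in adults (adjusted p = 6.03e-06).

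The mean level of cartilage genes was above that of older rats in every pup. Of 13 measured cartilage genes, 9 were called higher in newborns than in adults and none lower (median 1.29), and 10 were higher in newborns than in old rats (median 2.75). Between adult and old rats 5 were higher and 1 lower, and the median of 1.16 was the fitted value of Matn3, a probe at background in old rats, and became 0.35 with such genes at their bound. Col2a1, the collagen of cartilage, was 26.5-fold higher in newborns than in adults (4.73, adjusted p = 1.08e-12), while adult minus old was 0.35 (adjusted p = 0.472). Hapln1, the link protein, was well above background on 19 newborn arrays, 1 adult array and no old array, and it is counted among those higher in adults than in old rats (adjusted p = 0.000222) without a size. Col11a1 and Acan were higher in adults than in old rats, by 2.95 (adjusted p = 3.69e-09) and 2.54 (adjusted p = 1.29e-07). The mean level of the list was 2.60 to 3.79 in pups, 1.35 to 2.14 in adults and 0.43 to 0.78 in old rats. Over all probes, 26.7% were called higher in newborns than in adults and 20.0% higher in newborns than in old rats. Between adult and old rats, 11.4% of all probes were called higher in adults and 20.3% lower.

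The blood and marrow lists held few genes called higher in adult than in old rats. Over all probes 11.4% were called higher in adults and 20.3% higher in old rats, so these counts were near that share. Of 8 measured macrophage genes, 1 was called higher in adults and 2 lower (median -0.40, or -0.52 without Cd163, which was at background in both). The 1 higher was Mrc1, the mannose receptor, by 3.03-fold (1.60, adjusted p = 1.36e-06), and Adgre1, a macrophage surface receptor, was 2.91-fold lower in adults (-1.54, adjusted p = 8.58e-09). Of 9 measured genes of neutrophil granules 1 was higher and 1 lower (median -0.38). Camp, an antimicrobial peptide of granules, was 15.1-fold higher in adults (3.91, adjusted p = 2.32e-05) and well above background on 8 adult arrays and 1 old array, and Elane, neutrophil elastase, was at least 1.31-fold lower in adults (adjusted p = 0.00037), with 0 of 8 adult arrays well above background. Of 5 measured red cell genes none was higher and 2 were lower (median -0.94), and Alas2, the first enzyme of haem synthesis in red cells, was 4.14-fold lower in adults than in old rats (-2.05, adjusted p = 2.07e-05). The neuron list had none higher and 1 lower of 10 (median -0.34). Between newborn and old rats, 5 neutrophil granule genes were called higher in newborns and none lower. Their median was 1.26, or 1.54 with genes at background at their bound or left out. Red cell genes had 4 higher and none lower (median 1.37), and macrophage genes had 3 higher and 3 lower (median -0.16). Over all probes, 20.0% were called higher in newborns and 22.8% higher in old rats. The part of osteoclast and cartilage material in the levels of the 10 bone genes was not tested.

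**Figure D5:**
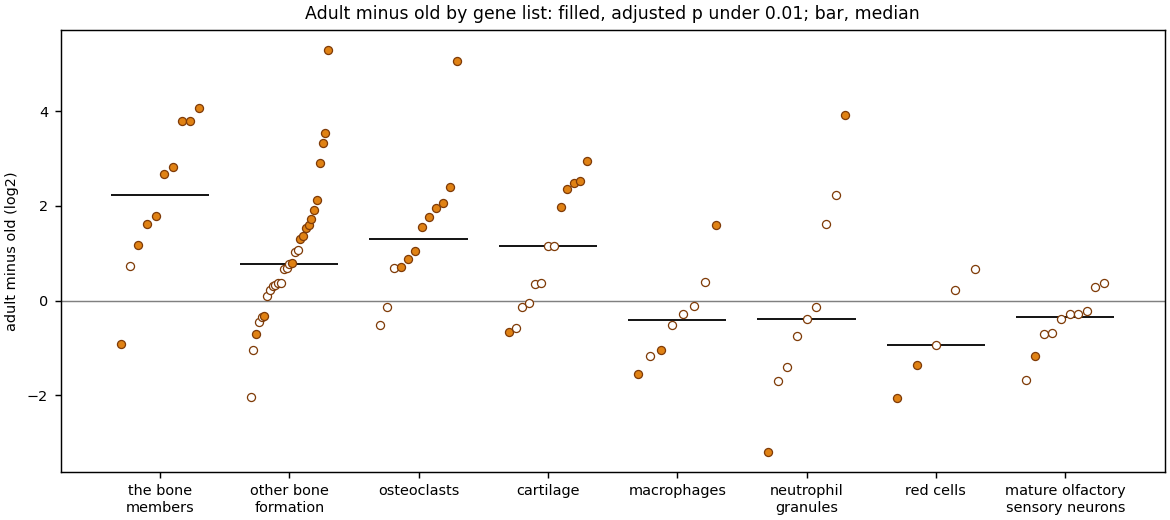
Adult minus old (log2, y axis) for each measured gene of the 10 bone genes and of 7 lists, with filled points for an adjusted p under 0.01 and a bar at the median. Medians of the bone, osteoclast and cartilage groups lie above 0 and those of macrophages, neutrophil granules, red cells and neurons below it. Points of genes at background in a group are fitted values, not bounds, and the medians are over fitted values.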

How the data were processed

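Signals of 35 arrays (27 rats) were used. The authors extracted each array's intensity with Agilent Feature Extraction (releases 9.5.1.1 for adult arrays and 9.5.3.1 for the others, per the file headers), which subtracts background and flags spots. From the deposited processed signal, 3294 outlier spots and all control spots were left out, spots of a probe were averaged, each array was divided by its median, ratios under 0.01 were set to 0.01 and log2 was taken. Sides of a rat were averaged. Groups were compared in 1 fit of 6 groups with limma 3.58.1 in R 4.3.3 (lmFit, eBayes, Benjamini-Hochberg over 41012 probes, adjusted p under 0.01, 5-fold as a second mark). This was tested on simulated data. No pair of arrays correlated above 0.9870, so none was taken as a duplicate. A probe not well above background on any array of a group has only a bound there. The number of rats limits the precision.

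The authors' deposited value table holds a linear ratio per probe, with 1 blank value and column medians of 0.723 to 0.978. Probes with a value at or near the floor on any array were left out of a comparison with these values. Of the rest, 99.9% differed by 1 constant per probe, after an offset of each array (at most 0.024 log2 units) was taken off. The deposited table was used as an alternative only.

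The genes and lists were chosen with earlier results of these data known. All 10 genes are named, with up to 4 called genes per list (largest differences) and the 10 genes most like Ibsp. The brightest probe stood for a gene. The files' coordinates are of rn3. Alternatives were other scalings, probes, blocks and tests, and leaving out each rat.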

Additional observations from a re-analysis of the deposited data

Results flagged for a closer look

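In 4 of 78 groups of 4 or 5 rats, 1 rat lay further from the rest than Dixon's test allows at 95%, a share near the 1 in 20 that chance gives. Old rat 18 had an Omd level of 1.87, and the nearest old rat 2.67. L2 pup 24 had a Runx2 probe 1 level of -1.12, with the nearest pup of L2 at -0.40, and a Runx2 probe 4 level of -0.0687, with the nearest at -0.77. L3 pup 27 had an Sp7 level of -3.40, with the nearest at -2.66, at the limit of the test. Old rat 18 was also the lowest old rat for Ibsp, Dmp1, Spp1, Mepe, Alpl, Sparc and Bglap, and pup 24 was the only L2 pup scanned on the last day.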

How the results depend on the processing

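The count of genes called between newborn and old rats was 10 and stayed at 7 to 10 under the other settings and at 8 to 10 when single rats were left out. The count between newborns and adults, 4, fell to 0 with litter means as replicates and to 0 with the methods' t-test (3 to 4 without single rats). Between adult and old rats, 9 became 5 with the methods' t-test (7 to 9 without single rats). Among litters, 5 became 3 with slide as a random block (4 to 6 without single rats), an alternative chosen after seeing the data. For L1 against old, 9 became 4 with only L1 and old rats, also chosen afterwards (7 to 9 without single rats).

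Single Runx2 probes and leaving out litter L2 were also chosen after seeing the data. Runx2 reversed with the probe: adult minus old was 1.24, 1.19 and 0.29 for probes 1, 2 and 3 and 0.45 for the mean of all probes, and newborn minus old was 2.67, 1.72, 1.04 and 1.18. Those of probes 1 and 3 and of the mean are fitted values and not sizes, because probes 1 and 3 were at background in old rats, with bounds of at least 2.44-fold and 1.49-fold for newborn minus old and none for adult minus old. Sparc newborn minus adult reversed to -0.0041 with quantile normalization (0.033 after normexp). Calls that moved in 6 or more settings were those of Runx2 (lost in 31 settings for adult minus old and in 25 for newborn minus old), Sp7 (9 for adult minus old), Bglap (6 for newborn minus old), Sparc (9 among litters) and Omd (gained in 7 among litters). Ibsp, Dmp1, Spp1, Mepe and Alpl kept their calls against old rats in both comparisons under all settings run. Sp7 had no value when only probes expressed in all groups were kept. No paired analysis was possible because the numbers in the labels name single rats and are shared by no 2 groups. The cause of these changes was not tested. Sp7 and Runx2 probes 1 and 3 were limited by signal near background.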
